A study of Mus musculus with 12 samples.

Results

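Ccl12, Ccl4, Cxcl12 and Cx3cl1 are 4 chemokine genes, of 5723 genes named on the array, that were followed across every array of a study of mouse glia given interleukin-1β. All probes annotated with 1 of these symbols were taken, 6 of the 8734 probes in the table: Ccl12 had 2 (numbered 5112 and 8138), Cxcl12 had 2 (2465 and 8695), and Ccl4 (5320) and Cx3cl1 (7994) had 1 each. All 6 had a value on every array used. The genes were chosen by their values in an earlier comparison of IL-1β with vehicle in wild-type glia, in which they stood out. Their wild-type changes, and differences that contain them, are therefore given as a description with no test. Tests are given for the IL-1R1-/- arrays and for the genotypes under vehicle.

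The arrays held RNA of primary mixed glial cells, a culture of several glial cell types, maintained for 10 to 12 days after isolation and then treated for 4 hours. The groups were IL-1R1-/- glia with 10 ng/ml rrIL-1β, IL-1R1-/- glia with vehicle, wild-type glia with 10 ng/ml rrIL-1β and wild-type glia with vehicle, 3 arrays each. The IL-1R1-/- mice lack the signalling receptor for interleukin-1. Treatments were paired within cultures. Which part of the receptor gene is deleted, and the strain and age of the mice, are not stated in any source used.

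IL-1R1-/- replicate 3 was left out. In its vehicle column 5959 of 5982 shared probes stood in 1 fixed ratio to wild-type vehicle replicate 1, and in its IL-1β column 6531 of 6584 did so to IL-1R1-/- vehicle replicate 1. These columns are called copied here, but a fixed ratio does not tell which column of each pair is the copy. The labels of wild-type vehicle replicate 1 and IL-1R1-/- vehicle replicate 1, both kept, are therefore uncertain as well. Without replicate 3 there were 10 arrays, 3 wild-type pairs and 2 IL-1R1-/- pairs, and 5713 probes with a value on all of them. Median intensity per array ran between 4649 and 60399, and the dimmest probe of each array read 0.225 to 0.368 of the array median, so the number of arrays and the background left in the values limit the precision. The Il1r1 probe lay between 13.86 and 14.17 in IL-1R1-/- glia and between 13.73 and 15.03 in wild-type glia (normalized log2 intensity). It did not separate the genotypes under vehicle (limma log2 difference 0.10 ± 0.27 SE, adjusted p = 0.958), and since its place relative to the deletion is not known here it checks nothing about the labels. RNA came from whole cultures, so a change in the number of cells of a type and a change in RNA per cell cannot be told apart.

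Chemokines are small secreted proteins that direct the movement of leukocytes and glia by binding receptors coupled to G proteins. IL-1β binds IL-1R1 on glia and, through the adaptor MyD88, activates NF-κB and MAP kinases, which induce many chemokine genes. Ccl12, a mouse relative of Ccl2, attracts monocytes through CCR2, and Ccl4 attracts macrophages and T cells. Cxcl12 acts through CXCR4 and ACKR3 in development and repair. Cx3cl1, or fractalkine, is made as a membrane protein, is shed by ADAM10 and ADAM17, and binds CX3CR1 on microglia.

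The 250 bases before the annotated start of Ccl12 are shown with those of Cxcl12 and Cx3cl1 because the Ccl12 probes stood apart from those of the other genes in the results that follow. They come from RefSeq (GRCm38.p6, plus strand, 5′ to 3′), whose table held 3 of the 4 genes. Ccl4 is named only. Capitals mark matches on either strand to TATAAA, the letters of a common core promoter element, or to GGGCGG, those of the GC box bound by Sp1.
Ccl12, chr11:82101595-82101844: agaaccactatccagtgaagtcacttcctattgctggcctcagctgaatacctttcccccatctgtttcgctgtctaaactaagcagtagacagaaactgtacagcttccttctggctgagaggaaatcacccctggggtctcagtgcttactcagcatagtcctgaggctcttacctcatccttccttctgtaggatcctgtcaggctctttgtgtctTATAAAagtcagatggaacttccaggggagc
Cxcl12, chr6:117168285-117168534: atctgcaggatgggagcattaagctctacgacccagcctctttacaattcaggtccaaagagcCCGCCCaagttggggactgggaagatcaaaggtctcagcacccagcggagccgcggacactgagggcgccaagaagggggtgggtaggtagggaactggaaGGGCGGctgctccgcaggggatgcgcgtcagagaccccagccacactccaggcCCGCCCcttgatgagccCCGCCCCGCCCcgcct
Cx3cl1, chr8:94771930-94772179: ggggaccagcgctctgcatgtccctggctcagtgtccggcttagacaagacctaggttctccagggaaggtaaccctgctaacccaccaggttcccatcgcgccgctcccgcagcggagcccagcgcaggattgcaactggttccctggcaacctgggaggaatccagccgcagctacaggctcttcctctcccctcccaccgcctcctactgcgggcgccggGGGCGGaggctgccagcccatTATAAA
The Ccl12 stretch held TATAAA at position -31 relative to the start and no GC box, at 48.4% G and C. The Cxcl12 stretch held 5 GC boxes, at -187, -86, -33, -16 and -11, where the last pair overlap by 1 base, and no TATAAA, at 64.4% G and C. The Cx3cl1 stretch held a GC box at -27 and TATAAA at -6, at 64.8% G and C. TATAAA occurred in 12.4% and GGGCGG in 32.7% of 32841 RefSeq stretches of this length. The AP-1 letters TGANTCA (6.75% of all stretches) and the NF-κB consensus (7.25%) had no match in any of the 3. Matches describe letters in this window and nothing about binding.

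Ccl12 had the highest change of the 4 genes in wild-type glia. Probe 5112 read 17.64, 16.31 and 16.45 in the 3 wild-type IL-1β arrays, against 14.28, 14.12 and 14.45 in their vehicle arrays (normalized log2 intensity, replicates 1 to 3). Probe 8138 read 17.19, 15.49 and 16.95 with IL-1β, against 14.64, 14.15 and 14.07 with vehicle. Every IL-1β array lay above every vehicle array in both probes, with the gap smallest for probe 8138 in replicate 2. The mean was 16.80 ± 0.73 with IL-1β and 14.29 ± 0.16 with vehicle for probe 5112 (SD, n = 3 each), a log2 change of 2.51 ± 0.24 (SE), or 5.71-fold. For probe 8138 the mean was 16.55 ± 0.92 with IL-1β and 14.29 ± 0.31 with vehicle (SD, n = 3 each), a log2 change of 2.26 ± 0.25 (SE), or 4.78-fold. SEs of IL-1β changes here are those of the limma fit, which pools pairs of both genotypes and moderates over all probes. They are not the spread of the 3 wild-type pairs, whose changes had an SD of 0.74 (probe 5112) and 0.82 (probe 8138).

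The size of the Ccl12 change differed between cultures. In the deposited intensities probe 5112 gave 13.4-fold, 3.78-fold and 3.17-fold in wild-type replicates 1, 2 and 3, and probe 8138 gave 7.09-fold, 2.36-fold and 5.62-fold. Probe 5112 stood at 44.8, 11.8 and 9.88 times the lowest intensity of its array with IL-1β, and at 4.22, 2.44 and 3.46 times with vehicle. The vehicle values are thus the ones nearest the floor of the arrays. Replicate 1 was the culture with the highest change for probe 5112. Without it the mean log2 change was 2.00 for probe 5112 and 2.03 for probe 8138. Without both cultures whose vehicle arrays recur in the copied columns it was 1.86 and 1.91.

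Ccl4 was higher with IL-1β in each wild-type culture, by a nearly constant amount. Its probe read 14.10, 14.98 and 14.69 with IL-1β, against 13.44, 14.40 and 14.04 with vehicle. Each IL-1β array lay above the vehicle array of its own culture, but the groups overlapped, because replicate 1 was low and replicate 2 high under both treatments. Deposited intensities gave 1.57-fold, 1.56-fold and 1.57-fold in the 3 pairs, and the mean log2 change was 0.63 ± 0.17 (SE of the fit). The normalized changes of the 3 pairs had an SD of 0.04.

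The Cxcl12 probes had changes of opposite sign. Probe 8695 read 14.19, 14.99 and 14.18 with IL-1β, against 13.58, 13.47 and 13.61 with vehicle, so that the groups did not overlap and replicate 2 was the highest. Its mean log2 change was 0.90 ± 0.21 (SE of the fit, with an SD of 0.53 between the pairs), or 1.87-fold, and 0.60 without replicate 2. Probe 2465 read 13.05, 13.85 and 12.96 with IL-1β, against 13.33, 13.97 and 13.64 with vehicle. It was lower with IL-1β in each pair while the groups overlapped, and its mean log2 change was -0.36 ± 0.18 (SE). This probe was dim, at 1.11 to 2.50 times the lowest intensity of each array over the 10 arrays.

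Cx3cl1 was higher with IL-1β in each wild-type culture, most in replicate 3. It read 14.71, 15.38 and 15.50 with IL-1β, against 14.22, 14.89 and 14.38 with vehicle. The groups overlapped, since the vehicle array of replicate 2 lay above the IL-1β array of replicate 1. The mean log2 change was 0.70 ± 0.19 (SE of the fit, with an SD of 0.36 between the pairs), or 1.62-fold. It was 0.50 without replicate 3.

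**Figure D1:**
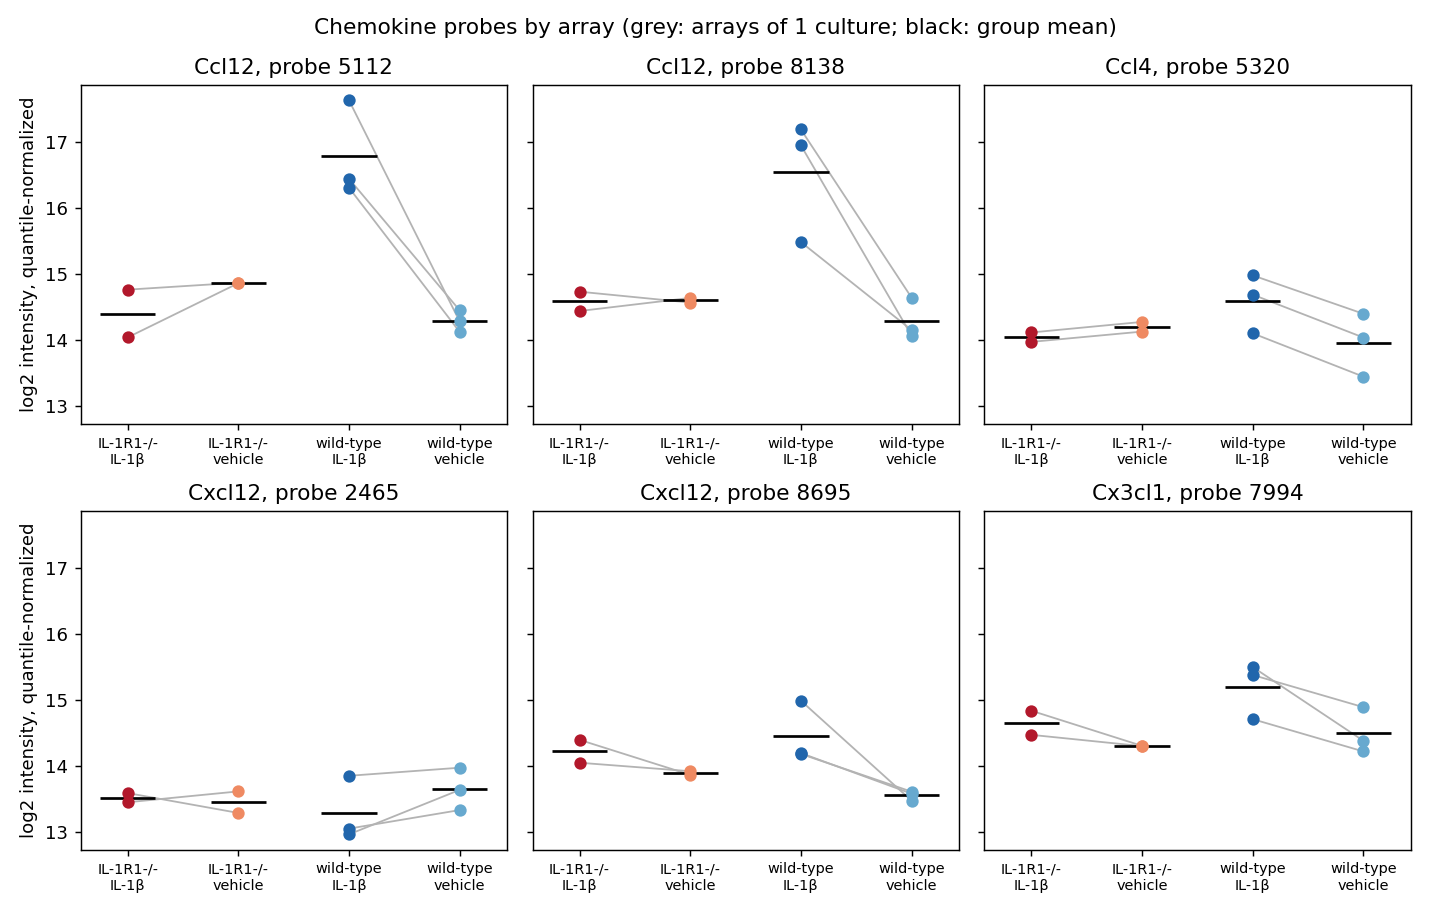
Normalized log2 intensity of the 6 chemokine probes (vertical axis) in each array of the 4 groups (horizontal axis). Points are arrays, grey lines join the arrays of 1 culture and black bars are group means. Both Ccl12 probes read 15.49 to 17.64 in wild-type IL-1β arrays and 14.04 to 14.87 in all other arrays, while the groups of the other genes lie closer together.

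In the fit across all 5713 probes, 5 of the 6 chemokine probes were past the adjusted threshold of 0.05 in wild-type glia, where 6.18% of all probes were (4.55% higher and 1.63% lower with IL-1β). All 5 were higher. This count is part of how the genes were chosen, so nothing is read from it. A positive change in 3 of 3 wild-type pairs was seen for 5 of the 6 probes and for 19.3% of all probes. IL-1β arrays all above vehicle arrays were seen for 3 of the 6, both Ccl12 probes and Cxcl12 probe 8695, and for 8.1% of all probes. These counts also use the wild-type values that chose the genes, and nothing is read from them.

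Wild-type changes varied with table position as well. Across probes, which are not independent replicates, Pearson r between a probe's change and that of its successor was 0.636, and it was 0.596 and 0.600 at 24 and 384 places on. These are the steps of plates of 384 wells in 16 rows and 24 columns, a layout inferred from the values. No r is given for other steps, so these values alone do not settle the layout. The table fell into 2 stretches, with a median wild-type log2 change of -0.20 over the 2696 probes of the first and 0.15 over the 3017 of the second. Cxcl12 probe 2465 lies in the first, and the other 5 chemokine probes lie in the second.

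Set against the probes beside them, defined as those within 1 inferred row and column on any plate of the same stretch, the 4 genes separated. The 53 neighbours of Ccl12 probe 5112 had a median wild-type log2 change of -0.05, and the 66 of probe 8138 had -0.07, so that Ccl12 lay 2.56 and 2.32 above its surroundings. The 75 neighbours of Ccl4 had a median of 0.64, against 0.63 for Ccl4 itself. The 70 neighbours of Cxcl12 probe 2465 had -0.35, against -0.36 for the probe. Both of these probes thus changed as much as the unrelated probes around them. Cxcl12 probe 8695 lay 0.52 above its 65 neighbours (median 0.38), and Cx3cl1 lay 0.26 above its 76 neighbours (median 0.44). Whether place on the array, or anything else these probes share, made the changes was not tested.

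**Figure D2:**
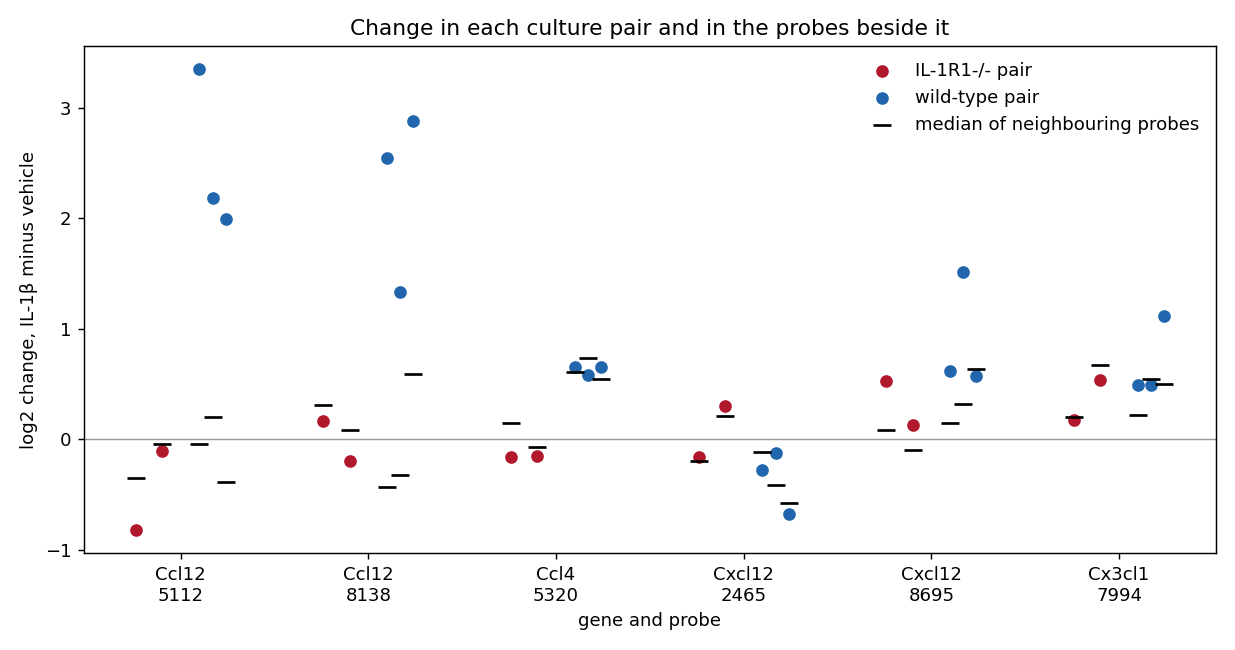
Log2 change, IL-1β minus vehicle, in each culture pair (vertical axis) for the 6 probes (horizontal axis), IL-1R1-/- pairs to the left of wild-type pairs. Black dashes give the median change of the neighbouring probes in the same pair. Ccl12 lies 1.66 to 3.39 above the dashes in every wild-type pair, whereas the Ccl4 points lie close to theirs.

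A smooth trend over inferred row and column was next removed from each array. Ccl12 kept its change, with log2 2.56 ± 0.21 for probe 5112 and 2.31 ± 0.19 for probe 8138 (SE of the fit). The SD between the wild-type pairs was then 0.74 and 0.62. Ccl4 then had 0.01 ± 0.12 and Cxcl12 probe 2465 had -0.02 ± 0.12. Cxcl12 probe 8695 had 0.53 ± 0.19 and Cx3cl1 had 0.25 ± 0.14. IL-1β arrays all above vehicle arrays were then seen for 2 of the 6 probes, both of Ccl12, and for 4.15% of all probes. Past the threshold were 0.473% of all probes (0.333% higher and 0.14% lower) and the same 2 of the 6. Both counts use the wild-type values that chose the genes, and nothing is read from them.

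The culture pairs show where the smaller changes lay. With the trend removed, the wild-type pairs gave 0.05, -0.14 and 0.11 for Ccl4, with no common direction. Cx3cl1 gave 0.27, -0.11 and 0.58. Cxcl12 probe 8695 gave 0.39, 1.22 and -0.02, so most of its mean came from replicate 2, and probe 2465 gave -0.18, 0.19 and -0.08. The 2 Ccl12 probes came closer to each other: they had 3.35, 2.19 and 2.00 (probe 5112) and 2.55, 1.33 and 2.89 (probe 8138) before removal, and 3.35, 1.90 and 2.43 (probe 5112) and 2.89, 1.67 and 2.38 (probe 8138) after it. Both then put replicate 1 highest and replicate 2 lowest.

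**Figure D3:**
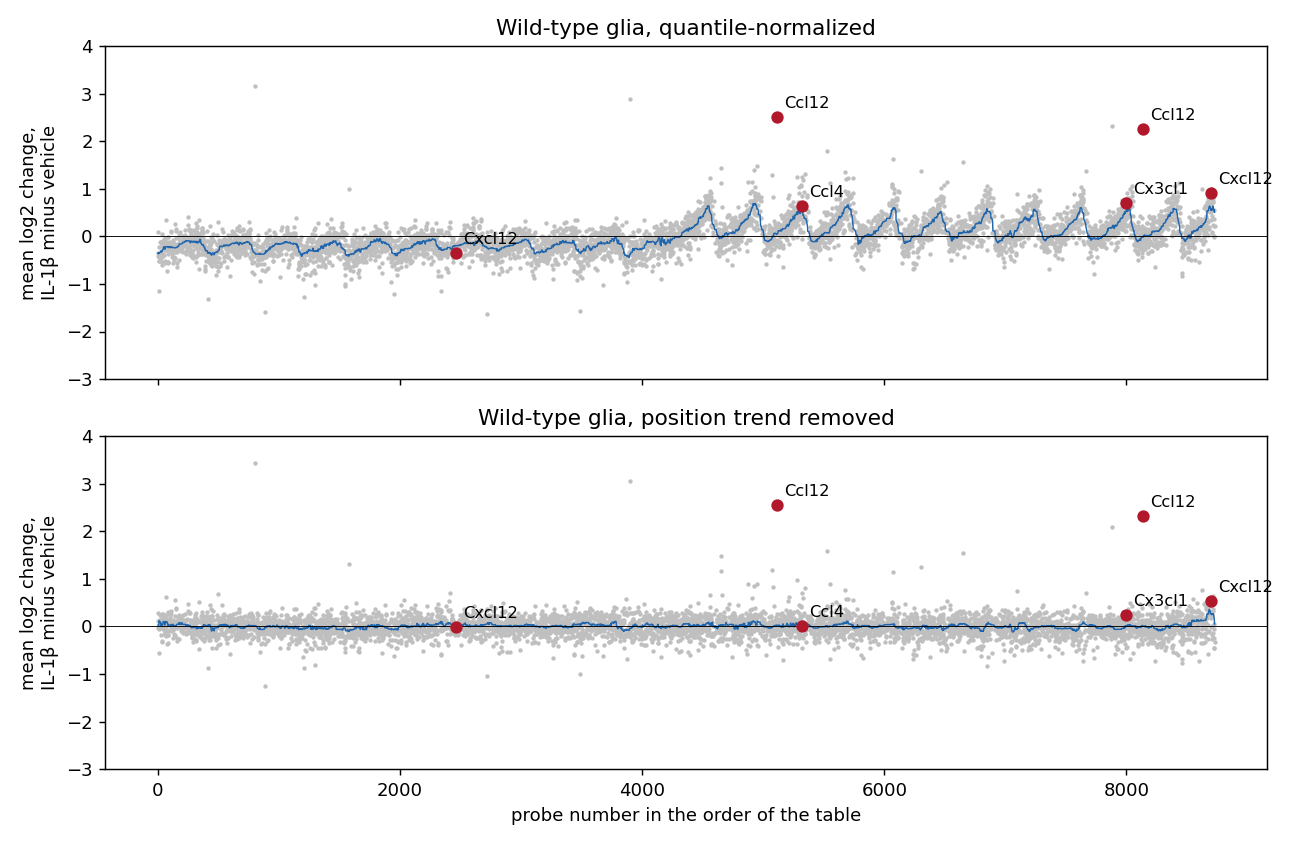
Mean wild-type log2 change, IL-1β minus vehicle (vertical axis), of each of the 5713 probes in table order (horizontal axis), before (top) and after (bottom) removal of the position trend. Red points are the 6 chemokine probes, and the line is a running median over 41 probes. Both Ccl12 points stay above 2 in both panels, and the Ccl4 point sits on the running line at 0.63 above and at 0.01 below.

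In IL-1R1-/- glia 0 of the 6 chemokine probes passed the threshold in limma, as did 0% of all 5713 probes. At an unadjusted p under 0.05 the counts were 0 of the 6 and 434 of all probes. Ccl12 probe 5112 read 14.04 and 14.76 with IL-1β, against 14.86 and 14.87 with vehicle (replicates 1 and 2). Probe 8138 read 14.73 and 14.44 with IL-1β, against 14.57 and 14.64 with vehicle. Neither probe of Ccl12 was higher with IL-1β in both pairs, and probe 5112 was lower in both. The limma estimates were -0.46 ± 0.30 for probe 5112 (SE, adjusted p = 0.761, 95% interval -1.11 to 0.18) and -0.02 ± 0.30 for probe 8138 (SE, adjusted p = 0.993, 95% interval -0.67 to 0.63).

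The other 3 genes showed small changes in IL-1R1-/- glia. Ccl4 read 14.12 and 13.97 with IL-1β, against 14.28 and 14.13 with vehicle, a log2 change of -0.16 ± 0.20 (SE, adjusted p = 0.882 in limma). Cx3cl1 read 14.47 and 14.84 with IL-1β, against 14.30 and 14.30 with vehicle, a change of 0.35 ± 0.23 (SE, adjusted p = 0.765 in limma). Cx3cl1 was thus higher in both pairs, and its neighbours had a median of 0.43 in these glia. With the trend removed Cx3cl1 had -0.03.

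Cxcl12 probe 8695 read 14.39 and 14.05 with IL-1β, against 13.86 and 13.92 with vehicle, and was higher in both IL-1R1-/- pairs (0.33 ± 0.25 SE, adjusted p = 0.798 in limma). Its neighbours had a median of 0.02 in these glia, and with the trend removed probe 8695 had 0.34. Probe 2465 read 13.45 and 13.59 with IL-1β, against 13.61 and 13.29 with vehicle, with no common direction (0.07 ± 0.23 SE, adjusted p = 0.956 in limma). The lowest unadjusted p among the 6 chemokine probes was 0.144. With the trend removed their adjusted p ran between 0.886 and 0.991 in limma.

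The response to IL-1β was lower in IL-1R1-/- than in wild-type glia for Ccl12, by a log2 difference of -2.98 ± 0.39 (SE) for probe 5112 and -2.27 ± 0.39 (SE) for probe 8138. With the trend removed it was -2.85 and -2.53. Over both probes the IL-1R1-/- pairs spanned -0.82 to 0.17 and the wild-type pairs 1.33 to 3.35. The share of all probes with pairs set apart in this way was not computed, so nothing is read from it. For Ccl4 the difference was -0.79 ± 0.26 (SE), and -0.20 with the trend removed. Cxcl12 had -0.57 ± 0.33 (SE, probe 8695) and 0.43 ± 0.29 (SE, probe 2465), and Cx3cl1 had -0.35 ± 0.30 (SE). These are -0.19, 0.04 and -0.28 with the trend removed. All contain the wild-type change that chose the genes, and no p is given. Across all probes 0.158% passed in this comparison, before and after trend removal.

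Ccl12 probe 5112 and Ccl4 had a positive change in every wild-type pair and a negative one in both IL-1R1-/- pairs. This pattern was seen in 2 of the 6 probes and in 4.74% of all probes. Its wild-type side is part of how the genes were chosen, so 4.74% is not a like base for them. Of all probes 1103 were positive in every wild-type pair, and 271 of those were also negative in both IL-1R1-/- pairs. Nothing is read from the count of chemokine probes. Among the other ligands Xcl1 had the pattern too, with a response difference of -0.65 (adjusted p = 0.303 in limma), and -0.25 with the trend removed. Each culture held 1 genotype, so the genotypes are compared between 3 wild-type and 2 IL-1R1-/- cultures. Anything else that differed between these sets of cultures cannot be told apart from genotype.

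Under vehicle no chemokine probe passed between the genotypes (0.0175% of all probes did, in limma), and the lowest unadjusted p of the 6 was 0.144. Ccl12 probe 5112 averaged 14.87 ± 0.01 in IL-1R1-/- glia (SD, n = 2) and 14.29 ± 0.16 in wild-type glia (SD, n = 3). The difference for this probe was 0.58 ± 0.37 (SE, adjusted p = 0.737 in limma). Probe 8138 averaged 14.60 ± 0.05 in IL-1R1-/- glia and 14.29 ± 0.31 in wild-type glia, and its groups overlapped (0.32 ± 0.41 SE, adjusted p = 0.895 in limma). Ccl4 had 0.24 ± 0.28 (SE), Cxcl12 had 0.34 ± 0.28 (probe 8695) and -0.20 ± 0.28 (probe 2465), and Cx3cl1 had -0.20 ± 0.28, with adjusted p between 0.805 and 0.904 in limma. The wild-type vehicle arrays also entered the comparison that chose the genes. The sign of the Ccl4, Cx3cl1 and Cxcl12 differences turned in other settings.

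Over the 4 groups the order of the means was the same for both Ccl12 probes: wild-type with IL-1β highest, then IL-1R1-/- with vehicle, IL-1R1-/- with IL-1β and wild-type with vehicle. The 3 lower groups of probe 8138 lay within 0.32 of each other (14.60, 14.59 and 14.29), which is about the spread of the wild-type vehicle arrays. In Ccl4 the order was wild-type with IL-1β (14.59 ± 0.45), IL-1R1-/- with vehicle (14.20 ± 0.10), IL-1R1-/- with IL-1β (14.04 ± 0.10) and wild-type with vehicle (13.96 ± 0.48, SD, n = 2 or 3). All neighbours in that order were within 1 SD of the wild-type arrays. Cx3cl1 was also highest in wild-type glia with IL-1β (15.19 ± 0.43), followed by IL-1R1-/- with IL-1β (14.65 ± 0.26), wild-type with vehicle (14.50 ± 0.35) and IL-1R1-/- with vehicle (14.30, SD under 0.01). Cxcl12 probe 8695 had the same top pair, at 14.45 ± 0.46 and 14.22 ± 0.25, followed by IL-1R1-/- with vehicle at 13.89 ± 0.04 and wild-type with vehicle at 13.55 ± 0.07. Probe 2465 differed by at most 0.36 between any 2 groups. With the trend removed both Ccl12 probes kept their order of groups, and the other genes did not. Ccl4 then had 14.30 in wild-type glia with IL-1β and 14.29 with vehicle, above IL-1R1-/- glia with IL-1β (13.99) and with vehicle (14.19). Cx3cl1 likewise had both wild-type groups highest, at 15.02 with IL-1β and 14.77 with vehicle. For Cxcl12 probe 8695 IL-1R1-/- with vehicle (13.63) lay below wild-type with vehicle (13.90).

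The other chemokine ligands were measured in part. Of a list of 39 mouse ligand genes 13 had a probe and 10 were measured on all arrays, among them 6 besides the 4 genes. In limma 0 of these 6 passed in any of the 4 comparisons, and 2 had an unadjusted p under 0.05 in wild-type glia. In wild-type glia their median log2 change was 0.09, beside -0.04 over all probes, and 0.11 with the trend removed. Xcl1, which attracts dendritic cells through XCR1, had 0.47 (adjusted p = 0.128), and Cxcl9, an interferon-induced ligand of CXCR3, had 0.40 (adjusted p = 0.216). Ccl11, the eosinophil attractant eotaxin, had 0.23, Ppbp -0.05, Cxcl17 -0.11 and Ccl27a -0.26. In IL-1R1-/- glia the 6 ran between -0.19 for Xcl1 and 0.30 for Cxcl9. The difference between Ccl12 and these genes in wild-type glia was not tested.

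Another 3 ligands lacked a value in IL-1R1-/- replicate 2 and are given as deposited log2 ratios. Ccl3, a macrophage attractant of the same family as Ccl4, had -0.25 in the IL-1R1-/- pair and 0.15, 0.01 and -0.08 in the wild-type pairs. Ccl6 had 0.61 in the IL-1R1-/- pair and 0.73, 1.11 and 0.19 in the wild-type pairs. Pf4 had -0.54 in the IL-1R1-/- pair and -0.11, -0.14 and -0.48 in the wild-type pairs. Neither Ccl6 nor Pf4 thus had opposite signs in the genotypes. Ccl2, Ccl5, Ccl7, Cxcl1, Cxcl2 and Cxcl10 were not measured here.

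**Figure D4:**
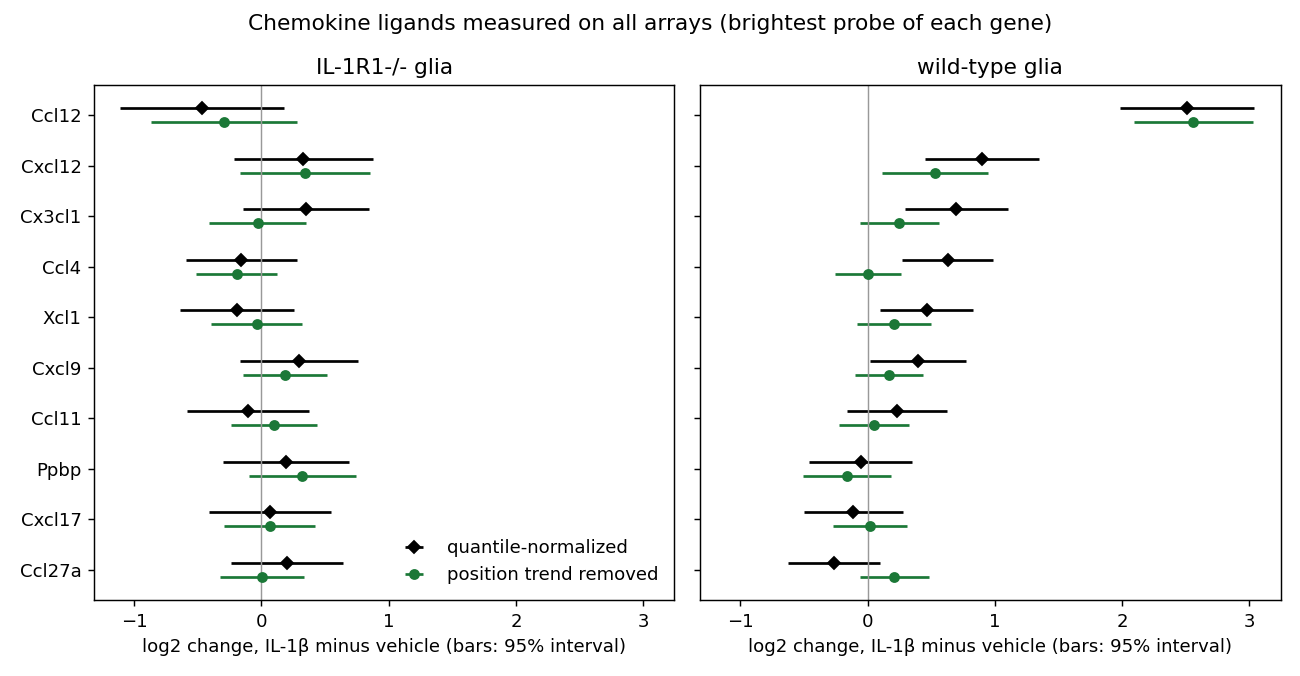
Log2 change, IL-1β minus vehicle (horizontal axis), of the 10 chemokine ligands measured on all arrays, with the brightest probe of each, in IL-1R1-/- glia (left) and wild-type glia (right). Diamonds are quantile-normalized values, circles have the position trend removed, and bars are 95% intervals of the fit. For Ccl12, Ccl4, Cxcl12 and Cx3cl1 in wild-type glia the bars are a description and no test, since these values chose the genes. Ccl12 lies at 2.51 and 2.56 in wild-type glia, while the other 9 lie between -0.26 and 0.90.

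Receptors and enzymes of these ligands were also covered in part. Of 24 receptor genes 4 had a probe and 3 were complete, and 0 of the 3 passed in any comparison in limma (1 at an unadjusted p under 0.05 in each). Ccr2, the receptor of Ccl12, read 14.15, 13.97 and 14.25 in wild-type IL-1β arrays, against 13.66, 13.51 and 13.81 in wild-type vehicle arrays. The IL-1β arrays all lay above the vehicle arrays, as they did for 8.1% of all probes. The Ccr2 change of 0.47 had an adjusted p = 0.118 and was -0.06 with the trend removed. Cxcr4, the receptor of Cxcl12, had -0.26 (adjusted p = 0.400), and 0.03 with the trend removed. Ackr4, a receptor that scavenges other chemokines, had -0.19 (adjusted p = 0.689). Cx3cr1 and Ackr3 were not measured here.

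Of 10 genes for enzymes that cut chemokines 4 were complete, and 0 passed in limma (2 at an unadjusted p under 0.05 in wild-type glia). Adam10, which releases Cx3cl1 from the membrane, read 14.96, 14.94 and 15.15 in wild-type IL-1β arrays, against 15.24, 15.70 and 15.66 in vehicle arrays. Its log2 change was -0.51 (adjusted p = 0.113), and -0.59 with the trend removed (adjusted p = 0.0727, both in limma). Adam10 in IL-1R1-/- glia read 14.83 and 14.55 with IL-1β, against 14.98 and 15.19 with vehicle, and was lower in both pairs (-0.40, adjusted p = 0.702). The difference of its response, IL-1R1-/- minus wild-type, was 0.12 (adjusted p = 0.886). Adam17 had -0.38 (adjusted p = 0.298), and -0.09 with the trend removed. Dpp4, which trims the amino end of Cxcl12, had -0.05. Mmp2, which also cuts Cxcl12, had 0.60 (adjusted p = 0.0645), 0.04 with the trend removed, and its second probe had -0.30.

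Among 28 genes of signalling downstream of chemokine receptors 10 were complete. Grk5, a kinase that desensitises receptors coupled to G proteins, fell with IL-1β in wild-type glia by 0.69 on the log2 scale (adjusted p = 0.0313 in limma), and by 0.68 with the trend removed (adjusted p = 0.0246). The other 9 did not pass, and the median of the 10 was 0.01. In IL-1R1-/- glia 0 of the 10 passed, and Grk5 had -0.24 (adjusted p = 0.811). The difference of the Grk5 response, IL-1R1-/- minus wild-type, was 0.44 (adjusted p = 0.471 in limma).

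Markers of the cell types a mixed glial culture could hold were set beside the chemokines. Of 20 microglia and macrophage markers 6 were complete (Itgam, Cd68, Tmem119, Tyrobp, C1qc and Ctss), and 0 passed in any comparison in limma (3 at an unadjusted p under 0.05 in IL-1R1-/- glia, 1 in each of the others). Their median wild-type change was -0.22, and the 6 ran between -0.52 and 0.16. Their summed normalized intensity was 257881 to 344724 in wild-type IL-1β arrays and 326476 to 334775 in wild-type vehicle arrays. In IL-1R1-/- glia it was 307253 to 356575 with IL-1β and 358189 to 455406 with vehicle. The sums of the wild-type groups overlapped. Whether the number of microglia had a part in the Ccl12 values was not tested.

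Of 11 astrocyte markers 3 were complete, and their sum was 91283 to 96667 in wild-type IL-1β arrays and 123558 to 150410 in wild-type vehicle arrays. The IL-1R1-/- sums overlapped, at 83202 to 122681 with IL-1β and 92186 to 134281 with vehicle. Glul, the glutamine synthetase of astrocytes, fell by 0.84 (adjusted p = 0.0291 in limma). It had -0.58 with the trend removed (adjusted p = 0.112), and its second probe had -0.10. The other markers in the sum did not pass in wild-type glia: Slc1a2, a glutamate transporter, had 0.10 (adjusted p = 0.825) and Sox9, a transcription factor, had -0.20 (adjusted p = 0.614), or 0.13 and -0.62 with the trend removed. Among 5 complete endothelial and mural markers Emcn, an endothelial sialomucin, rose by 0.84 (adjusted p = 0.0187), with 0.22 and adjusted p = 0.555 once the trend was removed. Of the complete oligodendrocyte (3), neuron (2) and meningeal fibroblast (2) markers 0 passed. Gfap, Aif1, Csf1r and P2ry12 were not measured here. The part of these markers in the chemokine values was not tested.

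Genes with the pattern most like each chemokine were ranked by Pearson r of normalized log2 intensity over the 10 arrays, as a description. For Ccl12 (probe 5112) they were Nfkbia, the inhibitor of NF-κB (r = 0.948), Ptx3, a long pentraxin (0.941), Plekha3 (0.930), Ahcyl2 (0.930) and Gbp9, an interferon-inducible GTPase (0.912). These arrays fall into wild-type IL-1β arrays and the rest, so r reflects that split. With the trend removed 4 of the 5 were again in the top 5: Ptx3 (0.965), Ahcyl2 (0.957), Gbp9 (0.956) and Nfkbia (0.949). The second Ccl12 probe had r = 0.918 with the first, and 0.994 with the trend removed.

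The genes most like the other chemokines depended on the position trend. For Ccl4 they were Emcn (r = 0.958), Pdxdc1 (0.946), Htra2 (0.929), Slc22a30 (0.925) and 1600014C10Rik (0.922). All of these but 1600014C10Rik are among the neighbours of the Ccl4 probe in the inferred layout. For Cxcl12 (probe 8695) they were Cables2 (0.968), Aph1a (0.953), Ces1e (0.949), Trmt10a (0.945) and St6gal1 (0.941). For Cx3cl1 they were Itm2b (0.971), Celf1 (0.940), Ifi209 (0.911), Aamdc (0.910) and Rbpms (0.907). In each of these 3 lists 0 of the 5 genes stayed in the top 5 once the trend was removed, when Cables2 had r = 0.174 with Cxcl12. The Cxcl12 probes had r = -0.06 with each other before and 0.50 after trend removal.

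**Figure D5:**
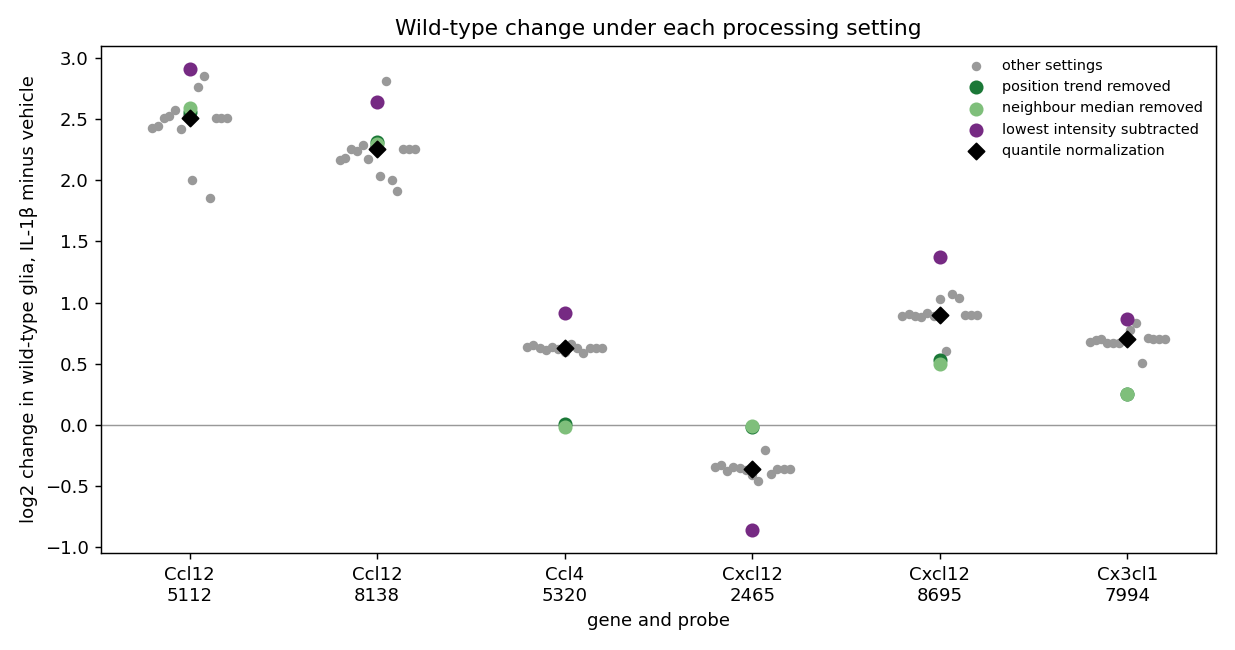
Mean wild-type log2 change, IL-1β minus vehicle (vertical axis), of the 6 probes (horizontal axis) under each processing setting. The diamond is quantile normalization, coloured points are the settings named in the legend and grey points are all others. Ccl12 ran between 1.86 and 2.91 (probe 5112) and between 1.91 and 2.81 (probe 8138), and the points nearest 0 for Ccl4 and Cxcl12 probe 2465 are those with position removed.

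The settings left the Ccl12 change in wild-type glia at 1.86 or more on the log2 scale. Cxcl12 probe 8695 ran between 0.50 and 1.38 and Cx3cl1 between 0.25 and 0.87. Ccl4 ran between -0.02 and 0.92, and Cxcl12 probe 2465 between -0.86 and -0.01. Subtracting most of the lowest intensity of each array gave the highest value for Ccl4, Cx3cl1, Cxcl12 probe 8695 and Ccl12 probe 5112. The probe sequences were not used here, so hybridisation of related transcripts, such as Ccl2 to the Ccl12 probes, was not tested.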

How the data were processed

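Per the labels' protocols, TRIzol-extracted and DNase-treated RNA was labelled with 33P during reverse transcription. The deposited values are linear spot intensities. The authors' background correction, normalization and filter are not stated in any source used. Each array had a value for all but 370 to 2011 probes. The 2 copied columns were not used. By the platform annotation 7153 of 8734 probes had 1 symbol, 387 several and 1194 none, and a current mouse table changed 0 symbols.

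Intensities of the 5713 complete probes were quantile-normalized on the log2 scale and fitted with limma 3.58.1 (R 4.3.3; lmFit, eBayes), taking each culture as a block and giving each genotype its own IL-1β term. Genotypes under vehicle were compared with 4 group means and culture as a random block (duplicateCorrelation, statmod 1.5.0, within-culture correlation 0.388, or 0.464 with the trend removed). P-values are two-sided and adjusted by Benjamini and Hochberg over all 5713 probes, threshold 0.05. P-values and SEs of the IL-1β changes rest on how the change varied between culture pairs, not on differences in level between cultures. Their variance was pooled over both genotypes and moderated over all probes. Without moderation 1 probe passed in wild-type glia, where 353 did with it. P-values under vehicle also carry the spread between cultures. In the second version a loess trend (span 0.2) over inferred plate row and column, in each of 2 stretches of the table, was subtracted from each array's deviation from the mean array. Pairing comes from the design text. Within a culture, deviations from the group means correlated at 0.562 (IL-1R1-/-) and at 0.468, 0.582 and 0.261 (wild-type).

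The text names every probe of the 4 genes, their measured receptors and sheddases, all measured ligands, any listed gene past the threshold, and the 5 genes most alike. In lists the brightest probe stands for a gene. The members and lists were chosen with earlier results of these data known. Alternatives changed the normalization, background, filters, arrays, variance estimate and block. Removing the median of neighbouring probes, and leaving out both cultures of the copied columns, were added after seeing the data. The wild-type fit was tested on simulated data. With no position trend it made 155 calls, 8 of them false. A trend like that of the wild-type arrays gave 895 calls on quantile-normalized values, 727 of them false. Once that trend was removed there were 159 calls, 7 of them false. The simulated trend had the same smooth form as the one removed and was equal in all wild-type IL-1β arrays. The simulated noise was taken from values with the trend already removed. The simulation thus cannot show how fully the trend of the real arrays was removed. Wild-type calls on values with the trend left in are limited by the false calls seen with a trend.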

Additional observations from a re-analysis of the deposited data

Results flagged for a closer look

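Ccl12 probe 5112 and Ccl4 had responses to IL-1β of opposite sign in the genotypes. The same directions were seen for Xcl1 among the other ligands. The response of probe 5112, IL-1R1-/- minus wild-type, was -2.98 on the log2 scale, with -0.82 and -0.11 in the IL-1R1-/- pairs and 3.35, 2.19 and 2.00 in the wild-type pairs. For Ccl4 it was -0.79, with -0.16 and -0.16 in the IL-1R1-/- pairs and 0.66, 0.58 and 0.65 in the wild-type pairs. With the position trend removed the Ccl4 wild-type pairs no longer shared a direction (0.05, -0.14 and 0.11), while those of probe 5112 did. The second Ccl12 probe had 0.17 and -0.20 in the IL-1R1-/- pairs, so its signs were mixed there, and -0.14 and -0.30 with the trend removed. Neither difference was tested for these genes, because the wild-type change chose them.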

How the results depend on the processing

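Of 378 log2 changes recomputed under 18 other settings, 346 kept their direction and side of the threshold where tested, or otherwise moved by less than the SD between replicates. In wild-type glia Ccl4 had 0.0060 with the position trend removed, -0.020 with the neighbour median removed, 0.92 with the lowest intensity subtracted and 0.59 without both cultures of the copied columns. Under the first 3 of these Cxcl12 probe 2465 had -0.021, -0.011 and -0.86, and Cx3cl1 had 0.25 under both position settings. In IL-1R1-/- glia leaving out 1 culture gave -0.20 to 0.17 for Ccl12 probe 8138 and -0.16 to 0.30 for Cxcl12 probe 2465 (signs turned without IL-1R1-/- replicate 2), and the sign turned for Cx3cl1 with the trend (-0.031) or neighbour median (-0.088) removed. Under vehicle it turned for Ccl4 (-0.11 with the trend and -0.061 with the neighbour median removed, and -0.015 to 0.46 leaving out 1 culture, the lowest without wild-type replicate 1), for Cxcl12 probe 8695 (-0.27 and -0.29 under both position settings) and for Cxcl12 probe 2465 (0.023 with the trend removed). Cx3cl1 ran between -0.32 and 0.0016 leaving out 1 culture, the highest without wild-type replicate 2. Without normalization between arrays Cxcl12 probe 2465 and Cx3cl1 had 1.60 and 1.63, where the median of all probes was 1.80. The cause was not tested.

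No chemokine probe passed in IL-1R1-/- glia or under vehicle in any setting. The count of all probes moved more. In wild-type glia (353) it was 27 with the trend removed, 29 with the neighbour median removed, 633 with gaps kept, 150 on all 12 columns, 69 without both cultures of the copied columns, 1 unmoderated, 175 with 1 genotype alone and 28 to 221 leaving out 1 culture, the lowest without wild-type replicate 1. In IL-1R1-/- glia (0) it was 177 with median centring (1 higher, 176 lower), 153 without normalization (1 higher, 152 lower) and 108 with 1 genotype alone. For the response (9) it was 264, 240 and 30 with median centring, no normalization and gaps kept, 5 without both cultures of the copied columns, 0 unmoderated and 2 to 16 leaving out 1 culture. Under vehicle (1) it was 102 with median centring, 0 to 8 leaving out 1 culture, and 0 in the other settings without a like-number block. With no replicate block the counts were 14, 0 and 0 in wild-type glia, IL-1R1-/- glia and the response, and the Ccl12 change stayed at 2.51 ± 0.32 SE (probe 5112). A replicate block of like numbers gave 86 under vehicle, with Ccl12 probe 5112 at 0.54. The vehicle comparison could not be fitted without both cultures of the copied columns.

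Dim probes near the lowest intensity of an array, above all Cxcl12 probe 2465, have changes that the background left in the values can compress. Only 2 IL-1R1-/- pairs were used, and leaving 1 out leaves a lone pair that is assumed to vary like the wild-type pairs.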
